A study of Homo sapiens with 6 samples.

Results

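Transcripts of 41 genes of the kinetochore and the spindle assembly checkpoint were followed in A549 cells, a line from a human lung adenocarcinoma. The genes were chosen by name, with earlier results of these data known, and all 41 symbols were found among the 19470 symbols of the count table. The kinetochore is the protein assembly built on centromeric chromatin to which spindle microtubules attach when a cell divides. Its inner layer reads the centromeric histone CENP-A, its outer layer holds the microtubule, and the checkpoint proteins that gather on unattached kinetochores delay anaphase until every chromosome is held. The chromosomal passenger complex corrects faulty attachments, and the shugoshins protect the cohesion of sister centromeres. Many of these genes are known to be transcribed mainly in the late cell cycle, shortly before division.

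The labels gave A549 cells of genotype WT in both groups, 3 libraries from cells activated by medium conditioned by osteoclasts (tagged OC), and 3 from cells under a treatment inducing dormancy (tagged SF). Neither the way dormancy was induced nor a shared base medium is stated in the labels. They name no separate cultures either, and the p-values therefore cover the library-to-library spread alone, which could be technical. In such bulk RNA, fewer cells that express a gene and less of its RNA per cell cannot be told apart.

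Total counts lay between 34128471 and 36667725 per library. The keratin genes KRT8, KRT18, KRT7 and KRT19 averaged between 435 and 3459.6 CPM (reads scaled to a common library size, with TMM factors) in activated cells. In dormant cells they averaged between 478 and 2165 CPM. CDH1 was at 86.1 CPM in activated and 36.3 CPM in dormant cells, and EPCAM at 0.611 and 1.28 CPM. Of these 6 epithelial markers, KRT8 (2.07-fold), KRT18 (1.91-fold) and CDH1 (2.37-fold) rose in the test described below. KRT7 and EPCAM fell, and KRT19 did not pass. Of 14 osteoclast markers, 9 had enough counts to be tested, 3 rose and 4 fell, of which 1 rise and 2 falls were tested through the counts of a single group. The summed level of the 14 was 447 to 535 CPM in activated and 126 to 129 CPM in dormant libraries. ITGB3, with 265 CPM in activated and 5.88 CPM in dormant cells, and TCIRG1, with 197 CPM in activated and 67.8 CPM in dormant cells, made up most of it. The other 12 summed to 23.0 to 24.8 CPM in activated and 53.2 to 55.1 CPM in dormant libraries, where ATP6V0D2 had 2164 counts in all, against 7 in activated libraries. Of 14 myeloid markers, 6 could be tested and all 6 rose, 2 of them tested through the activated group's counts alone, with a summed level of 178 to 187 CPM in activated and 144 to 159 CPM in dormant libraries. Most of that was CD68, and CD14 rose 8.37-fold. LAPTM5 (9.29-fold) was 1 of the 2 tested through the activated group's counts alone, so it could only be seen to rise. Shares over all tested genes were 36.5% for a rise and 37.2% for a fall. Of the osteoclast list DCSTAMP, OCSTAMP, CALCR and TYROBP, the last a general myeloid adaptor, and of the myeloid list AIF1, C1QA, C1QB and C1QC had 0 counts in every library. The part of these markers in the results below was not tested.

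Most kinetochore and checkpoint transcripts were higher in activated cells, and the size of the rise differed widely between subunits of the same complex. Such differences were common among all genes too. The FPKM ratio changed at least 2-fold in 8 of 17 pairs of partners without SPC24, and in 40.8% of all pairs of tested genes. Of the 41 genes, 36 rose, 1 fell and 4 did not pass, with 0.05 as the threshold on the Benjamini-Hochberg adjusted p of edgeR's quasi-likelihood test over 13336 genes. Among all tested genes 36.5% rose and 37.2% fell. The median log2 fold change was 1.47 over the 41 genes, with a range of -0.34 to 4.84, and -0.02 over all tested genes. A rise of at least 2-fold was seen for 29 of the 41, against 11.2% of all tested genes, and a rise of at least 4-fold for 10 of the 41, against 3.67%. On the CPM scale every activated library lay above every dormant library for the 36 genes that rose, an order seen for 37.7% of all tested genes. The gene that fell was MIS12, whose activated libraries all lay below the dormant ones, as did those of 38.7% of all tested genes. The 4 genes that did not pass, CENPC, CENPE, CENPP and CENPW, had overlapping groups. All 41 passed the filter on low counts, 40 of them through both groups and SPC24 through the activated group alone, so SPC24 could only be seen to rise.

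The summed level of the 41 transcripts was 1334, 1353 and 1351 CPM in the activated libraries and 625, 634 and 615 CPM in the dormant libraries. The proliferation marker MKI67 had 317 ± 39.5 CPM in activated and 72.1 ± 2.25 CPM in dormant cells (SD, n = 3 each), a log2 fold change of 2.13 ± 0.08 SE. Of the 41 genes, 6 had a larger log2 fold change than MKI67, and these were SPC24, CENPU, SPC25, AURKB, ZWINT and CENPI, the last by less than its own SE of 0.11. Another 6 rose by less than 1.5-fold, and these were CENPL, CENPF, SKA2, MAD1L1, BUB3 and ZW10.

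**Figure D1:**
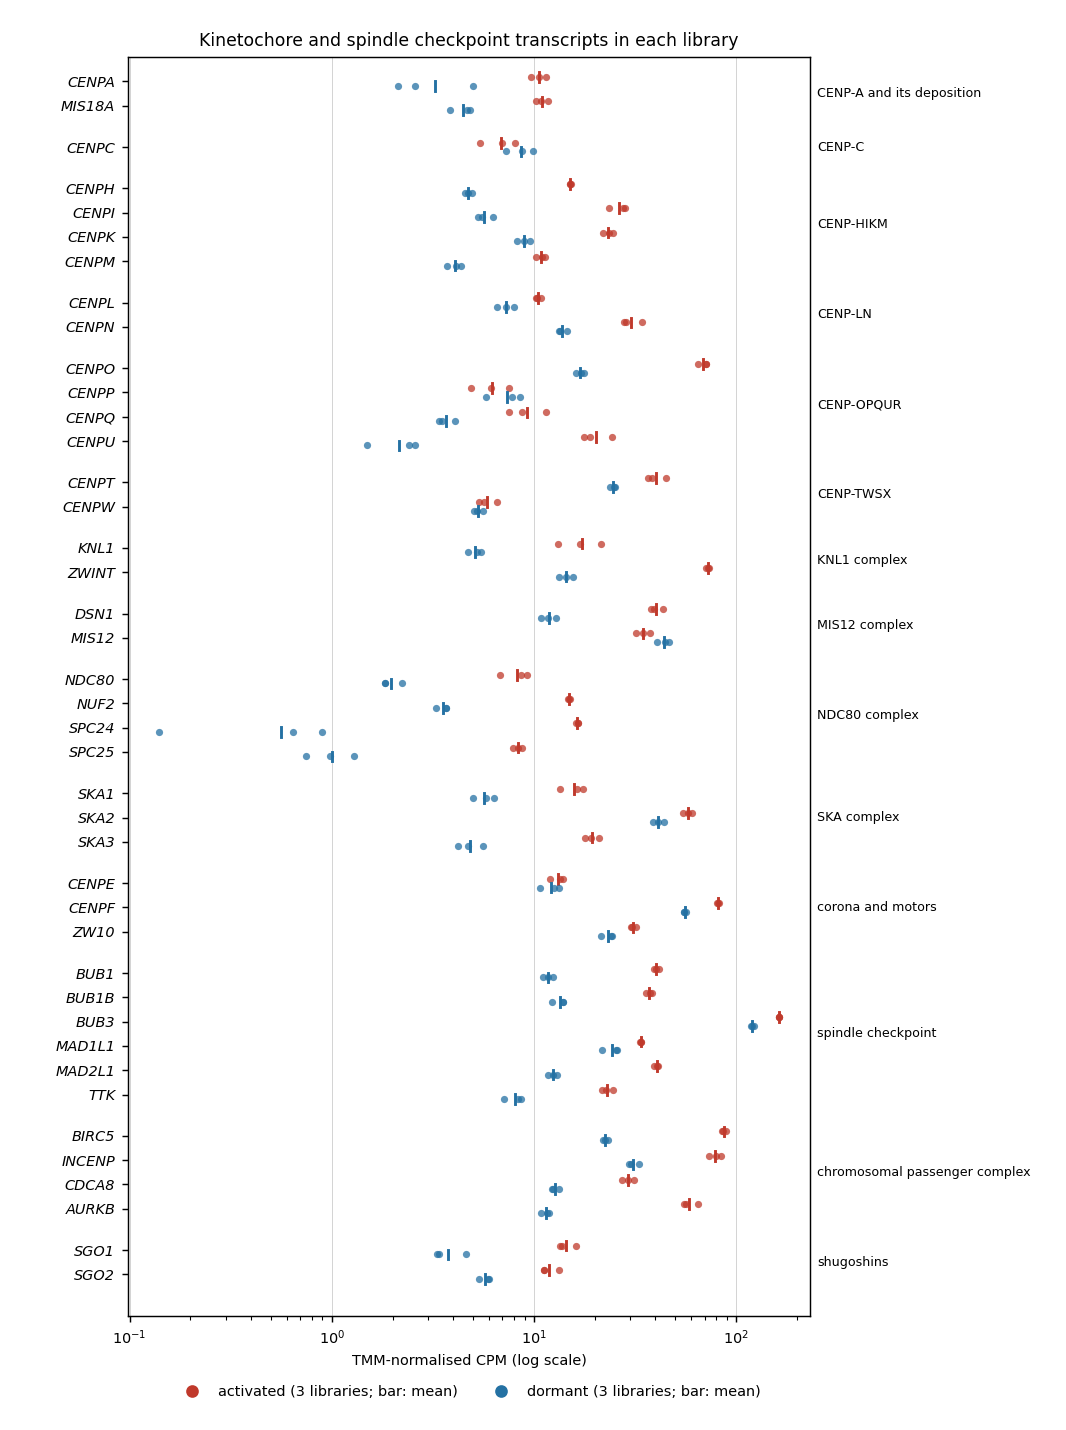
TMM-normalised CPM (log axis) of the 41 genes in each of the 3 activated (red, upper row of each gene) and 3 dormant (blue, lower row) libraries, with a bar at each mean, grouped by subcomplex. The groups are separate for 37 genes and overlap for CENPC, CENPP, CENPW and CENPE, and SPC24 is the gene with the lowest dormant values.

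Promoters of cell cycle genes often carry a hexamer called the CHR, the cell cycle genes homology region, which the LIN54 subunit of the DREAM and MMB complexes is known to bind. RefSeq promoter windows (GRCh38.p14, 250 bases before to 50 after the start) were at hand for 33 of the 41 genes, the others being BUB3, KNL1, CENPM, CENPH, TTK, BIRC5, MIS18A and CENPL. The letters TTTGAA, on either strand, or the palindrome TTCGAA were found in the windows of 19 of the 33, or 57.6%, against 15.7% of 10712 tested genes with a window. Within 50 bases of the start they were found for 17 of the 33, or 51.5%, against 4.94% of those tested genes. This narrower span was chosen after the positions were seen. A CCAAT box, searched as CCAAT on either strand, was in 66.7% of the 33 windows and in 43.0% of the tested genes' windows. The E2F-type letters TTTCCCGC or TTTGGCGC, on either strand, were in 2 of the 33, or 6.06%, against 4.47%.

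The following windows, 80 bases before to 40 after the start, 5′ to 3′ on the gene's strand with the CHR hexamer in capitals, show promoters with the hexamer near the start beside promoters without it. They were picked for contrast after the values were seen. CENPA, CDCA8, SPC25 and BUB1 carry it and rose, CENPW carries it and did not pass the test, SPC24 lacks it and had the largest rise of the 41, and CENPE lacks it and did not pass.
CENPA (chr2:26785976-26786095, plus strand): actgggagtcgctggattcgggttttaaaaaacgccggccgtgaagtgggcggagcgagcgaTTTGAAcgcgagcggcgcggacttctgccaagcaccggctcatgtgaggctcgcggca
CDCA8 (chr1:37692436-37692555, plus strand): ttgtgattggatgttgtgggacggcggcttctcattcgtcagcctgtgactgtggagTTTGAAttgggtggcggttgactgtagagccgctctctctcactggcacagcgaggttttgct
SPC25 (chr2:168890391-168890510, minus strand): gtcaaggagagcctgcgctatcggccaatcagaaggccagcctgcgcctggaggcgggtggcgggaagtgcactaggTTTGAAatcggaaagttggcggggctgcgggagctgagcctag
BUB1 (chr2:110678024-110678143, minus strand): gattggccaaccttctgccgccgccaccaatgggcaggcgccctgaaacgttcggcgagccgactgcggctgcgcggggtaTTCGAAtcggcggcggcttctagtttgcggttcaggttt
CENPW (chr6:126340035-126340154, plus strand): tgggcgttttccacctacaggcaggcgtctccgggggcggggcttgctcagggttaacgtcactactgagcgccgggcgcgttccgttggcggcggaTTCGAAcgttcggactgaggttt
SPC24 (chr19:11155743-11155862, minus strand): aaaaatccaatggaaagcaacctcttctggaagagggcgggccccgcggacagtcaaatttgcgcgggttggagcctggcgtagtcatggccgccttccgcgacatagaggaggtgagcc
CENPE (chr4:103198304-103198423, minus strand): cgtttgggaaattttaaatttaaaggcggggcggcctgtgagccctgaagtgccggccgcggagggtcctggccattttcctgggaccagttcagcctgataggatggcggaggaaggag

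The hexamer began 18 bases before the start in CENPA, 23 before it in CDCA8 and 3 before it in SPC25, at base 2 of the transcript in BUB1 and at base 18 in CENPW. Of the 17 genes with a match within 50 bases, 16 rose, beside 36 of all 41 genes and 36.5% of all tested genes. The median log2 fold change of the 17 was 1.71 (range 0.14 to 3.04). Of the 14 with no match in the window, 11 rose, with a median of 1.19 and a wider range, -0.34 to 4.84. CENPC and ZW10 had a match farther from the start. All 8 genes without a window rose, with a median of 1.47. Over all tested genes the median was 0.14 with a match within 50 bases and -0.01 without. The other letters went the other way among the 33 genes with a window. The median was 1.35 with a CCAAT box and 1.77 without. It was 0.69 with the E2F-type letters, found in 2 genes only, and 1.47 without. These counts describe letters in a window and not binding.

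**Figure D2:**
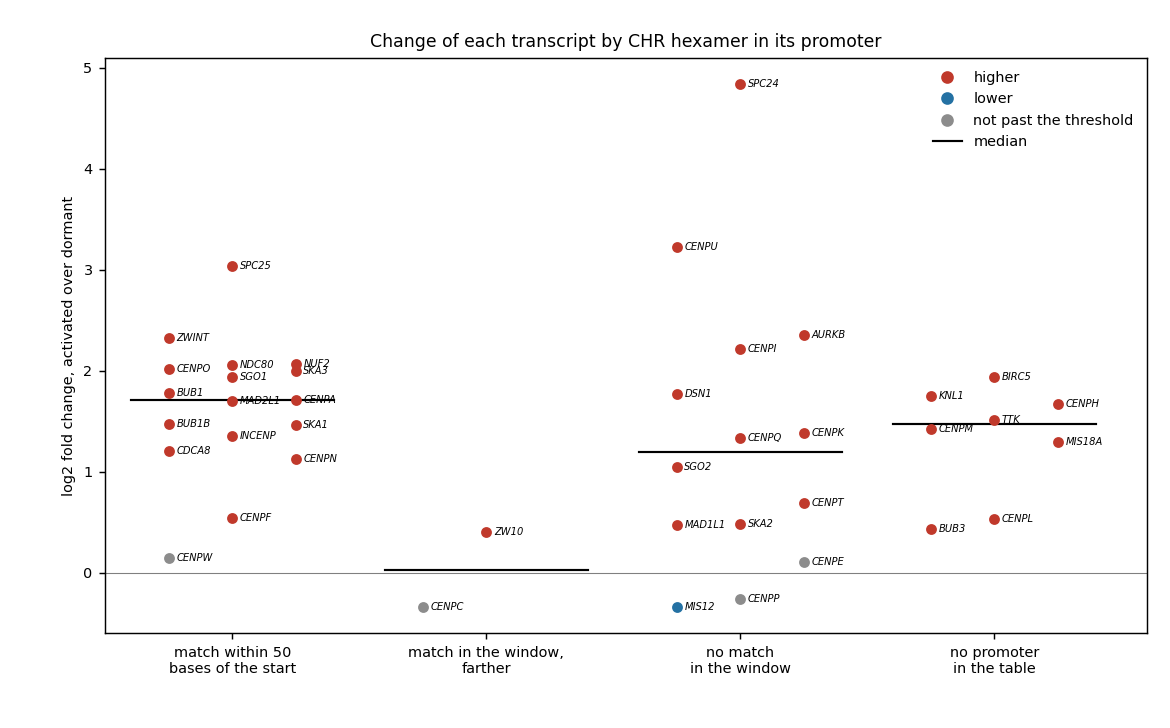
Log2 fold change (activated over dormant) of each of the 41 genes, placed by whether the CHR hexamer stands within 50 bases of the annotated start, farther away in the window, or nowhere in it, with the genes that have no window at the right and a line at each median. SPC24, CENPU and AURKB, without a match, lie among the largest rises, and CENPW, with a match, lies close to 0.

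In the inner kinetochore, the centromeric histone and most of the proteins that dock on it rose. CENPA, the histone H3 variant that marks the centromere, had 10.6, 9.65 and 11.5 CPM in activated libraries, against 2.59, 2.14 and 5.01 CPM in dormant libraries. Its groups were separate although dormant replicate 3 stood well above the other dormant libraries, and the log2 fold change was 1.71 ± 0.24 SE (adjusted p = 1.28e-05). CENPA shares 6.96% of its exon bases with SLC35F6 on the same strand, whose log2 fold change of 0.0068 did not pass (adjusted p = 0.91). MIS18A, a licensing factor for the loading of new CENP-A, rose 2.45-fold. CENPC, which links CENP-A nucleosomes to the outer kinetochore, had 6.99, 5.45 and 8.10 CPM in activated libraries, against 7.32, 9.88 and 8.72 CPM in dormant libraries. Its groups overlapped, and its log2 fold change of -0.34 ± 0.17 SE did not pass (adjusted p = 0.0792), though it did without activated replicate 3 (log2 fold change -0.47, adjusted p = 0.0326), without dormant replicate 1 (-0.44, adjusted p = 0.0406) and with total counts as the scale (-0.48, adjusted p = 0.0185).

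The subunits of CENP-HIKM, which bridge CENP-C and the other inner proteins, all rose, beside 36.5% of all tested genes. CENPI rose most (4.65-fold), then CENPH (3.20-fold), CENPM (2.68-fold) and CENPK (2.61-fold). CENPI had 23.6, 27.7 and 28.2 CPM in activated libraries, against 6.25, 5.53 and 5.31 CPM in dormant libraries. In CENP-LN, which contacts CENP-A directly, CENPN rose 2.18-fold and CENPL 1.45-fold. CENPN shares 12.8% of its exon bases with CMC2 on the other strand, and CMC2 itself rose (log2 fold change 0.52, adjusted p = 0.000315). The effect of this overlap on the counts of CENPN was not tested.

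The CENP-O group, which helps to recruit the kinase PLK1 to the kinetochore, had the widest range of log2 fold changes among the subcomplexes, -0.26 to 3.23. CENPU, its PLK1-binding subunit, had 24.3, 17.7 and 18.9 CPM in activated libraries, against 1.496, 2.57 and 2.40 CPM in dormant libraries, and its log2 fold change was 3.23 ± 0.18 SE (adjusted p = 6.19e-10). CENPO had 64.9, 71.3 and 71.0 CPM in activated libraries, against 17.7, 16.1 and 17.1 CPM in dormant libraries, a 4.07-fold rise. CENPQ rose 2.53-fold. CENPP, by contrast, had 6.14, 7.52 and 4.91 CPM in activated libraries, against 7.80, 8.57 and 5.79 CPM in dormant libraries. Its groups overlapped, and its log2 fold change was -0.26 ± 0.18 SE (adjusted p = 0.225). CENPP shares 37.97% of its exon bases with IPPK, which rose (log2 fold change 0.61, adjusted p = 5.85e-06), CENPO shares 27.0% with ADCY3, which rose too (log2 fold change 0.38, adjusted p = 2.18e-05), and CENPU shares 11.7% with PRIMPOL (log2 fold change 0.74, adjusted p = 0.000105). These neighbours lie on the other strand, and their part in the counts was not tested.

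CENPT and CENPW form a histone-fold dimer that offers a second route from DNA to the outer kinetochore. CENPT rose 1.62-fold, with 44.9, 36.8 and 38.3 CPM in activated libraries, against 25.3, 23.9 and 24.9 CPM in dormant libraries. CENPW had 5.67, 6.54 and 5.36 CPM in activated libraries, against 5.26, 5.58 and 5.06 CPM in dormant libraries, with overlapping groups and a log2 fold change of 0.14 ± 0.15 SE (adjusted p = 0.412). CENPT shares 10.8% of its exon bases with TSNAXIP1 and 6.86% with THAP11, both on the other strand, of which the more abundant, THAP11, fell slightly (log2 fold change -0.14, adjusted p = 0.0406). The other genes of this group, CENPX and CENPS, are not among the 41. CENPX rose 5.11-fold, and CENPS, with 44 activated and 39 dormant counts in all, did not pass.

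**Figure D3:**
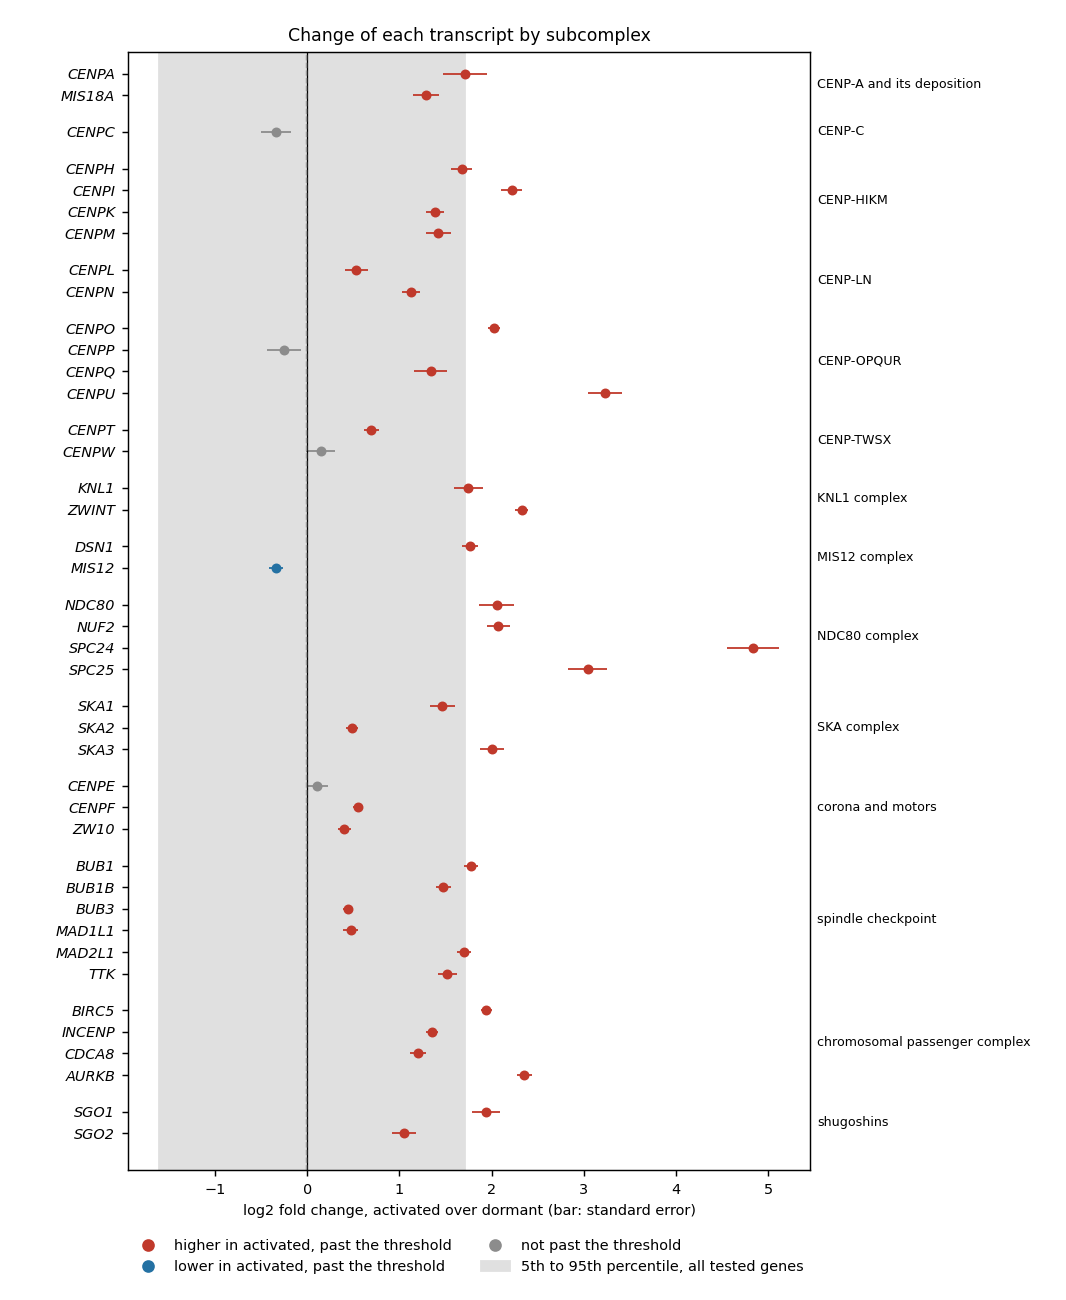
Log2 fold change (activated over dormant) with its standard error for each of the 41 genes by subcomplex, red where the gene rose, blue where it fell and grey where it did not pass the test, over the 5th to 95th percentile of all tested genes (-1.61 to 1.71, shaded). The NDC80 complex holds the largest change, and the corona genes CENPE, CENPF and ZW10 sit within 0.55 of 0.

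The outer kinetochore held the gene with the largest rise. The NDC80 complex is a rod whose NDC80 and NUF2 end binds the microtubule and whose SPC24 and SPC25 end binds the kinetochore. SPC24 had 16.5, 16.1 and 16.5 CPM in activated libraries, against 0.641, 0.900 and 0.140 CPM in dormant libraries. These dormant values rested on 24, 35 and 5 counts, so its log2 fold change of 4.84 ± 0.28 SE (adjusted p = 8.39e-10) has the least certain size among the 41. SPC25 had 8.71, 8.33 and 7.89 CPM in activated libraries, against 0.748, 1.29 and 0.979 CPM in dormant libraries, an 8.23-fold rise from 113 dormant counts in all. At the other end of the rod, NUF2 had 15.0, 14.8 and 15.2 CPM in activated libraries, against 3.69, 3.68 and 3.30 CPM in dormant libraries (4.20-fold), and NDC80 rose 4.15-fold.

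In the MIS12 complex, which joins NDC80 to the inner kinetochore, the 2 subunits among the 41 changed in opposite directions. DSN1, its phosphorylated subunit that controls binding to CENP-C, had 43.5, 39.4 and 38.2 CPM in activated libraries, against 10.9, 12.9 and 11.8 CPM in dormant libraries (3.41-fold, adjusted p = 1.06e-10). MIS12 fell, with 37.5, 32.2 and 34.7 CPM in activated libraries, against 40.7, 46.6 and 44.7 CPM in dormant libraries (log2 fold change -0.34 ± 0.07 SE, adjusted p = 0.00079). MIS12 shares 9.53% of its exon bases with DERL2 on the other strand, which moved the opposite way (log2 fold change 0.39, adjusted p = 5.81e-05). The other subunits of the MIS12 complex, PMF1 and NSL1, are not among the 41. PMF1 rose 1.63-fold. NSL1 did not pass, and its groups overlapped, with 25.2 ± 3.84 CPM in activated and 23.9 ± 2.20 CPM in dormant cells. In the KNL1 complex, KNL1, the scaffold on which the BUB proteins assemble, had 13.2, 21.6 and 16.9 CPM in activated libraries, against 5.21, 4.71 and 5.48 CPM in dormant libraries. Its activated libraries were spread but all above the dormant ones (3.36-fold). ZWINT, its partner, rose 5.01-fold with little spread, to 72.6 ± 1.08 CPM in activated cells, against 14.5 ± 1.15 CPM in dormant cells.

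The SKA complex helps NDC80 to hold the ends of microtubules. SKA3 rose 4.01-fold and SKA1 2.76-fold, while SKA2 rose only 1.40-fold, with 60.8, 57.8 and 54.8 CPM in activated libraries, against 44.0, 40.95 and 39.0 CPM in dormant libraries. Per length, SKA2 was the most abundant of the 3 in both groups, with a level of 18.3 FPKM in activated and 14.4 FPKM in dormant cells. The 3 motor and corona genes among the 41 changed little. CENPE, a kinesin that carries chromosomes to the spindle equator, had 11.98, 14.0 and 13.5 CPM in activated libraries, against 10.7, 13.3 and 12.6 CPM in dormant libraries, with overlapping groups and a log2 fold change of 0.11 ± 0.11 SE (adjusted p = 0.401). With total counts as the scale this value was -0.031, so no direction can be given. CENPF, a large protein of the outer corona that is known to accumulate in G2, rose 1.46-fold, and ZW10, a subunit of the RZZ complex that recruits dynein, rose 1.32-fold. The other RZZ subunits, KNTC1 and ZWILCH, which are not among the 41, rose more, 3.82-fold and 2.63-fold.

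All 6 checkpoint genes rose, in separate ranges. Shares over all tested genes were 36.5% for a rise and 37.7% for every activated library above every dormant one. BUB1, a kinase that marks centromeric chromatin, had 40.2, 39.4 and 41.5 CPM in activated libraries, against 12.5, 11.1 and 11.7 CPM in dormant libraries (3.43-fold). MAD2L1, the subunit that captures CDC20, rose 3.26-fold, TTK, the kinase MPS1 that starts the signal, 2.87-fold, and BUB1B, the BUBR1 subunit of the mitotic checkpoint complex, 2.78-fold. These 4 genes thus lay between 2.78-fold and 3.43-fold. The other checkpoint genes rose less. BUB3, which binds both BUB kinases, had 163 ± 0.225 CPM in activated and 121 ± 1.89 CPM in dormant cells (1.35-fold). MAD1L1, the kinetochore anchor of MAD2, had 33.5, 33.8 and 33.97 CPM in activated libraries, against 25.9, 21.7 and 25.5 CPM in dormant libraries (1.38-fold, adjusted p = 7.6e-05). Of the checkpoint genes, BUB1B shares 10.2% of its exon bases with the read-through gene BUB1B-PAK6, which had under 0.02 CPM on average in both groups.

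All 4 genes of the chromosomal passenger complex rose, beside 36.5% of all tested genes. AURKB, its kinase, had 55.2, 56.6 and 64.7 CPM in activated libraries, against 11.9, 11.7 and 10.8 CPM in dormant libraries (log2 fold change 2.36 ± 0.08 SE, adjusted p = 2.39e-12). BIRC5, survivin, which brings the complex to centromeric chromatin, had 85.3, 86.0 and 89.6 CPM in activated libraries, against 22.5, 23.4 and 21.95 CPM in dormant libraries (3.84-fold). INCENP, the scaffold that activates the kinase, rose 2.56-fold, and CDCA8, borealin, 2.30-fold, so the kinase rose most and the targeting and scaffold subunits less. Of the shugoshins, SGO1, which guards mitotic cohesion, had 16.1, 13.4 and 13.8 CPM in activated libraries, against 3.31, 4.60 and 3.38 CPM in dormant libraries (3.82-fold). SGO2 rose 2.07-fold.

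Levels of different genes are compared per length, as the authors' FPKM, which are scaled by total counts and not by TMM factors. In activated cells the highest of the 41 were AURKB with 38.3 ± 3.32 FPKM, ZWINT with 32.3 ± 0.454 FPKM and BIRC5 with 31.3 ± 0.83 FPKM. The mean ± SD ranges of ZWINT and BIRC5 overlapped, and that of AURKB lay above both. In dormant cells the highest were MIS12 with 16.8 ± 1.32 FPKM, BUB3 with 16.4 ± 0.143 FPKM and SKA2 with 14.4 ± 0.829 FPKM, of which MIS12 and BUB3 did not differ beyond their spread. The order among the 41 thus changed, with the kinase AURKB above MIS12 in activated cells and below it in dormant cells. The lowest in dormant cells was SPC24 with 0.232 ± 0.161 FPKM, and the lowest in activated cells was CENPC with 0.898 ± 0.174 FPKM.

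Ratios of partners within a library need no scaling between libraries, since the library's total cancels. For 19 pairs of partners, the log2 FPKM ratio was compared between groups, and 17 pairs did not overlap, or 89.5%, against 74.4% of all pairs of tested genes with an FPKM above 0 in every library. The smallest exact two-sided permutation p that 3 against 3 libraries allows is 0.1, so no pair could reach 0.05, and the Benjamini-Hochberg value over the 19 pairs was 0.112 for the pairs that did not overlap. A ratio changed at least 2-fold in 10 pairs, or 8 of 17 without the pairs that hold SPC24, while 40.8% of all pairs of tested genes changed that much. Without SPC24, 15 of 17 pairs did not overlap.

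The ratio of DSN1 to MIS12 was 1.30, 1.37 and 1.23 in activated libraries, against 0.2998, 0.308 and 0.294 in dormant libraries. The order of these subunits turned round between groups, with DSN1 above MIS12 in activated cells and below it in dormant cells. The ratio of SPC24 to SPC25 was 1.26, 1.29 and 1.39 in activated libraries, against 0.572, 0.467 and 0.0953 in dormant libraries, with the lowest value resting on the 5 counts of SPC24 in dormant replicate 3. Across the rod, the ratio of SPC24 to NUF2 was 0.931, 0.922 and 0.918 in activated libraries, against 0.147, 0.207 and 0.0358 in dormant libraries. Since SPC24 passed the filter through its activated counts alone, the direction of both its ratios supports nothing by itself. The ratio of NDC80 to NUF2 was 0.581, 0.633 and 0.452 in activated libraries, against 0.504, 0.614 and 0.564 in dormant libraries. This pair overlapped, with a change of -0.02 on the log2 scale (exact permutation p = 1).

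For the checkpoint, the ratio of BUB1 to BUB3 was 0.504, 0.493 and 0.520 in activated libraries, against 0.208, 0.191 and 0.200 in dormant libraries, a 2.53-fold change. The ratio of MAD2L1 to MAD1L1 was 0.784, 0.781 and 0.745 in activated libraries, against 0.323, 0.349 and 0.314 in dormant libraries, a 2.35-fold change. In both pairs the subunit that rose more was the less abundant per length in both groups. For the passenger complex, the ratio of AURKB to INCENP was 3.30, 3.15 and 3.40 in activated libraries, against 1.75, 1.56 and 1.61 in dormant libraries, so here the more abundant subunit rose more. The ratio of CENPQ to CENPU was 0.528, 0.954 and 0.584 in activated libraries, against 3.98, 1.94 and 2.15 in dormant libraries, another order that turned round. CENPO to CENPP changed 4.86-fold, SKA3 to SKA2 2.88-fold and CENPT to CENPW 1.46-fold, while KNL1 to ZWINT overlapped.

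The spread among subunits did not move one way across complexes. In the NDC80 complex the highest mean FPKM was 1.80 times the lowest in activated cells, against 7.49 times in dormant cells, where SPC24 with its few counts was the lowest, and in the MIS12 pair 1.30 times, against 3.32 times. In the CENP-O group it was 14.0 times in activated cells, against 5.07 times in dormant cells, and in the passenger complex 3.29 times, against 1.79 times. Of 13 subcomplexes with at least 2 genes here, the spread was narrower in every activated library in 5 and narrower in every dormant library in 5. It overlapped between groups in 3, CENP-A and its deposition, the KNL1 complex and the shugoshins.

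**Figure D4:**
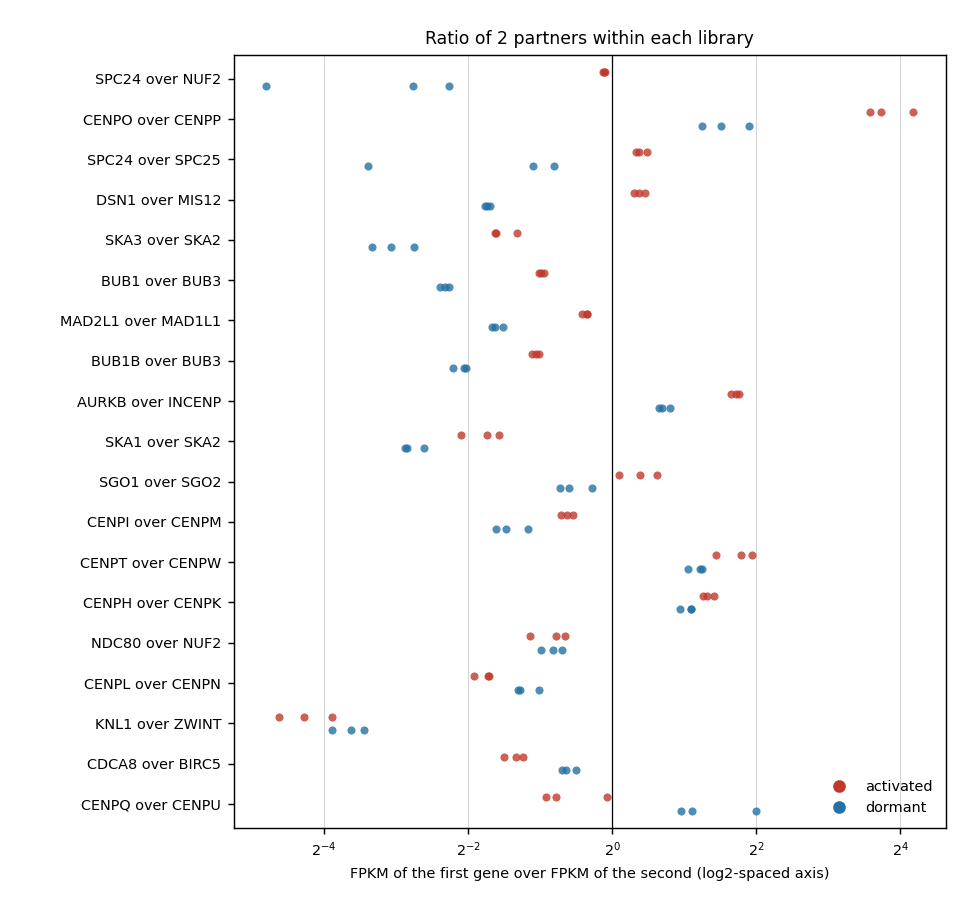
FPKM of the first gene of each of 19 pairs over that of the second, in each activated (red, upper) and dormant (blue, lower) library on a log2-spaced axis, sorted by the change. DSN1 over MIS12, SPC24 over SPC25 and SGO1 over SGO2 lie above 1 in activated and below 1 in dormant libraries, CENPQ over CENPU lies the other way, and NDC80 over NUF2 overlaps.

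Other genes of chromosome attachment and separation were described from 4 lists that held none of the 41, in all 74 genes, of which 43 rose, 12 fell and 19 did not pass, with a median log2 fold change of 0.30. Among all tested genes 36.5% rose and 37.2% fell. With total counts as the scale, 39 rose and 18 fell. Of 29 other kinetochore and CENP-A loading genes, 18 rose and 4 fell (median 0.58). ERCC6L, the PICH translocase of anaphase threads, had 21.8 ± 1.36 CPM in activated and 1.75 ± 0.322 CPM in dormant cells (12.4-fold), and HJURP, the chaperone that deposits CENP-A, had 127 ± 4.86 CPM in activated and 17.3 ± 0.538 CPM in dormant cells (7.36-fold). DYNLT3, a dynein light chain that binds BUB3, fell 2.85-fold. Of 12 other checkpoint genes and silencers, 7 rose and 1 fell (median 0.56). CDC20, the target of the checkpoint, rose 7.42-fold and HASPIN, the kinase whose histone mark attracts the passenger complex, 6.44-fold, while PPP2R5A, a regulatory subunit of the phosphatase PP2A, fell 1.71-fold.

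The other lists hold genes of anaphase onset and of sister cohesion. Of 18 genes of the anaphase-promoting complex and its regulators, 11 rose and 4 fell (median 0.22). UBE2C, its ubiquitin-conjugating enzyme, rose 3.48-fold and FBXO5, its inhibitor EMI1, 2.08-fold, while the subunit ANAPC16 fell 1.51-fold. Of 15 genes of cohesin and its release, 7 rose and 3 fell (median 0.10). For both lists the shares over all tested genes are again 36.5% for a rise and 37.2% for a fall. The acetyltransferases of cohesin moved in opposite directions, since ESCO2 had 22.6 ± 1.84 CPM in activated and 1.97 ± 0.43 CPM in dormant cells (11.4-fold), whereas ESCO1 fell 2.26-fold. CDCA5, sororin, which keeps cohesin on DNA, rose 4.66-fold.

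**Figure D5:**
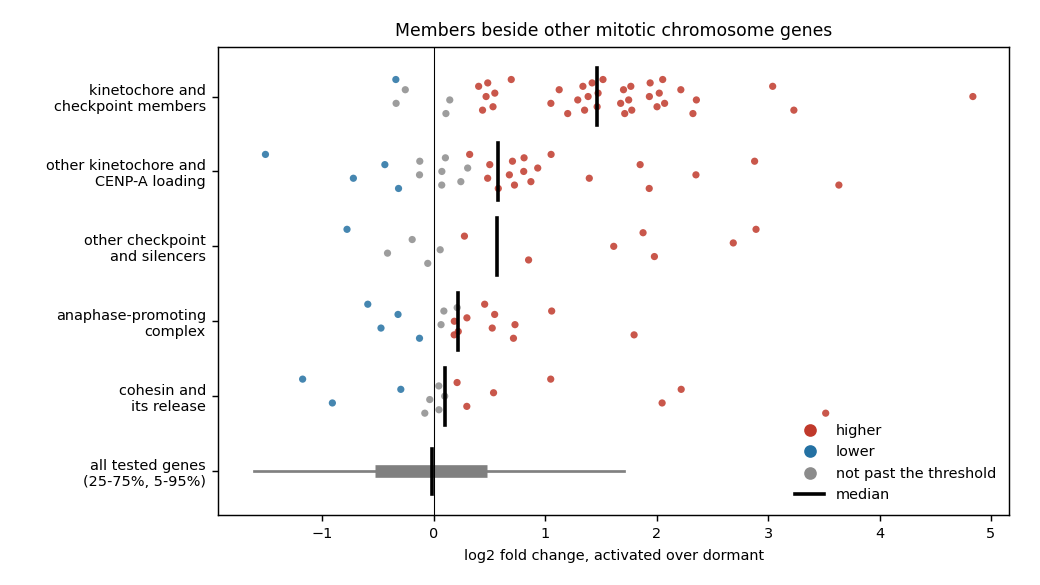
Log2 fold change (activated over dormant) of each gene of the 41 and of 4 lists of other mitotic chromosome genes, with the median of each as a black line and the quartiles and the 5th to 95th percentile of all tested genes in the bottom row. The median is 1.47 for the 41, between 0.10 and 0.58 for the lists and -0.02 for all tested genes.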

How the data were processed

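Total RNA of 3 activated and 3 dormant A549 samples was isolated using TRIzol, and libraries were prepared with the VAHTS Universal V6 kit, per the labels' protocols. The authors deposited whole-number read counts for each gene symbol. They also deposited FPKM, which matched those counts divided by gene length and library total. The submitters' processing notes name fastp, HISAT2 and HTSeq and give GRCh38 as the build. For versions, annotation and strand setting, none was found in labels or headers, so how reads of overlapping genes were counted is not known. Of the 41 genes, 8 share at least 5% of their exon bases with another gene of the table in GENCODE 29, and 7 (CENPC, CENPI, CENPU, SKA2, BUB1, BUB3 and SGO1) have a named pseudogene there that may take or lend reads.

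Counts were tested with edgeR 4.0.16 (R 4.3.3), using TMM factors, filterByExpr by group with a minimum count of 10, the quasi-likelihood test and Benjamini-Hochberg adjustment over all 13336 genes tested, with a threshold of 0.05. Standard errors (SE) were taken as the size of the log2 fold change over the root of the F statistic. The edgeR test, and no other step, was also tested on simulated counts, where the share of false calls came out above the nominal threshold. Far fewer genes were changed in the simulation than were called in the data, so the share may differ for these calls. Values are mean ± SD of 3 libraries unless each library is given. Counts of replicates varied beyond sampling noise (chi-square per degree of freedom of 4.55 to 19.8), so each library counted once. The 41 genes, the partner pairs and the other lists were chosen with earlier results of these data known. All 41 could be named, and from each list the 2 largest changes in the majority direction and the largest in the other. Genes of the lists that belong to the RZZ complex, the MIS12 complex or the group of CENPT and CENPW were named as well. Alternatives were DESeq2 size factors, total counts, upper-quartile factors, DESeq2 1.42.0, limma voom (limma 3.58.1), no filter, at least 1 CPM in 3 libraries, a block for the replicate number, each library left out in turn, limma for log2(FPKM + 1) with and without a minimum mean FPKM of 0.5, the same with 0.1 as the pseudocount and that minimum, and a loess correction for gene length (span 0.3). Partner ratios were also taken from raw counts with 0.5 added. Promoter sequences are RefSeq's (GRCh38.p14).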

Additional observations from a re-analysis of the deposited data

How the results depend on the processing

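The 36 genes that rose and the 1 that fell, MIS12, did so under all 18 alternatives. Over all genes, 9830 changed, 4868 higher and 4962 lower, and with total counts the split was 3941 and 5998, with their median log2 fold change moved by -0.14. CENPC passed as a second lower gene, making 2, with total counts, without activated replicate 3, without dormant replicate 1, and with filtered log2(FPKM + 1) and log2(FPKM + 0.1). Leaving out each library thus gave 1 to 2 lower genes. Neither CENPE nor CENPW passed under any setting, but the log2 fold change of CENPE was -0.031 with total counts, -0.017 with log2(FPKM + 1), filtered or not, and -0.026 with log2(FPKM + 0.1), and that of CENPW was -0.000116 with the gene length correction. Of the 74 other genes, 12 were lower, and 19 with unfiltered log2(FPKM + 1), against 38 higher. In the fit blocked on replicate number, 9789 genes changed, 36 of the 41 were higher and 1 lower, and 43 and 11 of the 74. By replicate number, 17 pairs of partners kept 1 direction in all 3 numbers. The share of all pairs of tested genes that did so was not computed. Deviations of libraries with the same number correlated at -0.0152, 0.019 and -0.00572, so they were not treated as paired. Without the SPC24 pairs, an alternative chosen after seeing the data, 15 of 17 pairs of partners did not overlap, against 74.4% of all pairs of tested genes. Depth limits SPC24, with 64 dormant counts in all, more than any other of the 41.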
